A study of Mus musculus with 2 samples.

Results

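The mitochondrial ribosomal proteins were taken as every listed gene whose symbol begins with Mrpl or Mrps and a digit, without pseudogene symbols. This gave 76 of the 16614 listed genes, 47 of the large subunit (Mrpl) and 29 of the small subunit (Mrps). Transcripts were profiled in mouse bone marrow macrophages, grown for 3 days with M-CSF and then treated for 2 days with RANKL, the cytokine that drives macrophages to become osteoclasts. There was 1 library from Foxo3 KO cells and 1 library from WT cells, both on a C57BL/6 background. The sources used here do not give the KO allele, the sex and age of the mice or the number of animals behind each library.

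Mitochondria carry their own ribosome, which translates the few membrane subunits of the respiratory chain and ATP synthase that mitochondrial DNA encodes. All of its proteins are made from nuclear genes and imported, while its RNAs come from the mitochondrial genome. Some of the proteins have counterparts in the bacterial ribosome, and the others were added in the mitochondrial lineage. Osteoclasts are rich in mitochondria, and FoxO3 is a forkhead transcription factor known for its part in stress resistance and metabolism.

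Levels are FPKM, fragments per kilobase normalised for sequencing depth, which allow genes of different length to be compared. The log2 ratio of a gene is log2(KO + 1) minus log2(WT + 1), so a value above 0 means a higher level in the Foxo3 KO library, and the pseudocount of 1 FPKM understates differences of low genes. Genes at 1 FPKM or more in at least 1 library were called measured, 10003 in all, among them all 76 members. With 1 library in each group there is no replicate error and no p-value, so every difference describes these 2 libraries. A fixed rule of size, a log2 ratio at least 0.3219 away from 0, stands in for a test and is called the size rule. The targeted gene, Foxo3, read 0.548 FPKM in the Foxo3 KO library and 10.3 FPKM in the WT library, a log2 ratio of -2.87. Of 15 listed macrophage markers 14 were measured, with a median of 38.6 FPKM in the Foxo3 KO library and 45.0 FPKM in the WT library. Their levels went down to 1.17 FPKM in Foxo3 KO and 1.16 FPKM in WT. The lysozyme gene Lyz2 was the most abundant of them, at 5674 FPKM in Foxo3 KO and 7501 FPKM in WT. All 10 osteoclast markers were measured, with a median of 204 FPKM in Foxo3 KO and 190 FPKM in WT. Among them, the osteoclast protease gene Ctsk read 6862 FPKM in the Foxo3 KO library and 6106 FPKM in the WT library. In bulk RNA, fewer cells of a type and less RNA per cell cannot be told apart.

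Transcripts of the mitochondrial ribosome were, on the whole, slightly higher in the Foxo3 KO library. The log2 ratio was above 0 for 70 of the 76 members (92.1%), against 57.6% of all measured genes. That share was higher among the genes with the shortest transcripts (67.8%) and the most abundant genes (64.7%), where most members lie. The median log2 ratio was 0.15 for the members, against 0.03 for all measured genes. Summed over the members, the level was 4130 FPKM in the Foxo3 KO library and 3679 FPKM in the WT library. The KO sum thus stood at 112% of the WT sum, against 102% for all measured genes. Single differences were small. By the size rule 4 members (5.26%) were higher, against 2.96% of all measured genes, and 0 members were lower, against 4.16%. These shares by size lie near those of all genes, and the members differ from the background more in their shared sign. That sign was not particular to them. All 78 measured genes of the respiratory chain and ATP synthase and 79 of 83 listed as cytosolic ribosomal proteins were also above 0. At 2-fold, 0 members were higher, against 0.12% of measured genes, and 0 were lower, against 0.2%. Of the members, 57 had a log2 ratio between 0.05 and 0.3.

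**Figure D1:**
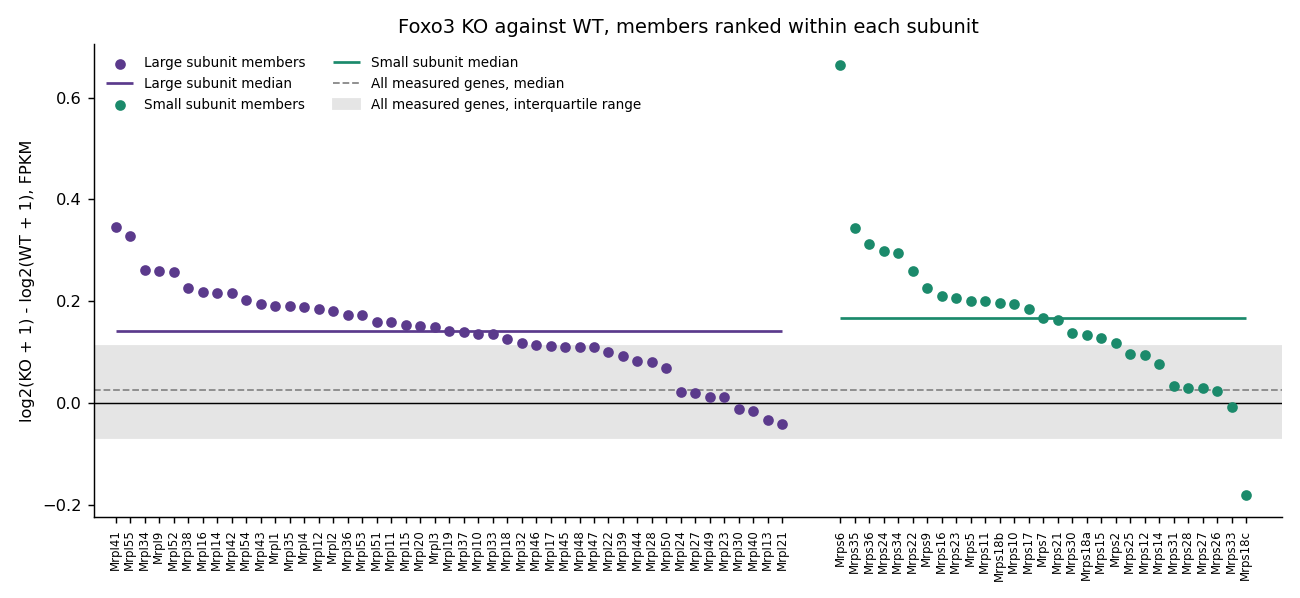
Log2 ratio of each of the 76 members (points, y axis, log2 scale with a pseudocount of 1 FPKM), ranked within the large subunit (left, 47 genes) and the small subunit (right, 29 genes). Solid lines are subunit medians of 0.14 and 0.17, the dashed line is the median of all 10003 measured genes (0.03), and the band is their interquartile range, from -0.07 to 0.11; Mrps6 at 0.66 and Mrps18c at -0.18 stand apart from the rest of the small subunit.

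Most members of either subunit were above 0. Of the 47 large subunit members, 43 had a log2 ratio above 0, with a median of 0.14, an SD over members of 0.09 and a range from -0.04 to 0.35. Of the 29 small subunit members, 27 were above 0, with a median of 0.17, an SD over members of 0.15 and a range from -0.18 to 0.66. The large subunit median minus the small subunit median was -0.03, and 1 library in each group allows no test of it. The name does not always give the place: structures put Mrps30 and Mrps18a in the large subunit, and Mrps36 has been assigned to the 2-oxoglutarate dehydrogenase complex. With Mrps30 and Mrps18a counted as large subunit genes and Mrps36 left out, the medians were 0.14 for the large and 0.18 for the small subunit.

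Levels within the ribosome spread widely, although most of its proteins are present at a single copy in each particle. In the Foxo3 KO library members ran from 9.17 to 327 FPKM, a range of 35.7-fold, and in the WT library from 8.40 to 274 FPKM, a range of 32.6-fold. Of the 76 members, 69 in the Foxo3 KO library and 68 in the WT library lay between 10 and 100 FPKM. The median level of large subunit members was 48.4 FPKM in the Foxo3 KO library and 43.7 FPKM in the WT library. For small subunit members it was 42.9 FPKM in the Foxo3 KO library and 38.1 FPKM in the WT library. The order of the members was nearly the same in both libraries, with a Spearman rho of 0.991 across the 76 genes, which are not independent replicates.

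**Figure D2:**
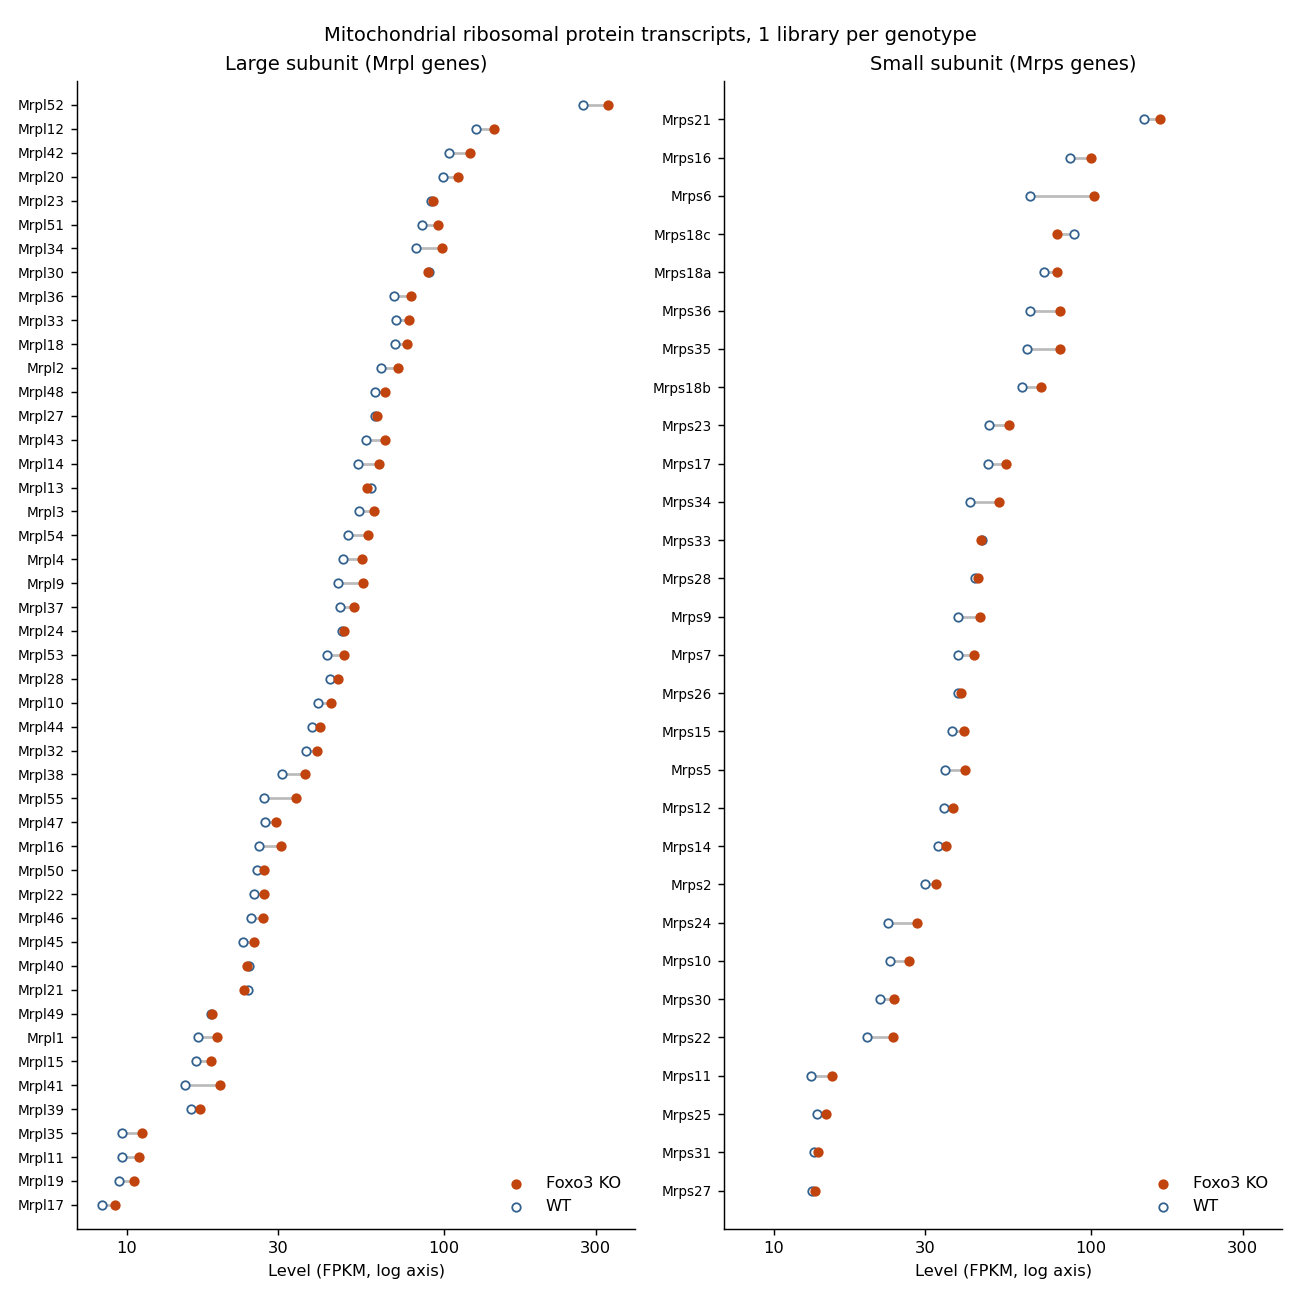
Level of each member in FPKM (x axis, logarithmic) in the Foxo3 KO library (filled points) and the WT library (open points), for large subunit genes (left) and small subunit genes (right), ordered by mean level. The KO point lies to the right of the WT point for 70 of the 76 genes, and the widest gap on this axis is that of Mrps6, at 102 FPKM in Foxo3 KO and 64.1 FPKM in WT.

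Mrpl52, a protein of the large subunit with no bacterial counterpart, was the most abundant member, at 327 FPKM in the Foxo3 KO library and 274 FPKM in the WT library (chromosome 14, 54426909 to 54429756). Its log2 ratio was 0.26. Mrpl12, the counterpart of the bacterial stalk protein that recruits translation factors, followed at 144 FPKM in the Foxo3 KO library and 126 FPKM in the WT library (log2 ratio 0.18). Mrpl42 read 121 FPKM in Foxo3 KO and 104 FPKM in WT (0.22). Mrpl20, whose bacterial counterpart binds ribosomal RNA early in assembly, read 111 FPKM in Foxo3 KO and 99.5 FPKM in WT (0.15). All of these abundant large subunit genes had a log2 ratio above 0 and none met the size rule. The next in level were mixed: Mrpl51 read 95.6 FPKM in Foxo3 KO and 85.4 FPKM in WT, and Mrpl34 read 98.3 FPKM in Foxo3 KO and 81.8 FPKM in WT. Mrpl23 was nearly level, at 92.0 FPKM in Foxo3 KO and 91.3 FPKM in WT, and so was Mrpl30, at 88.7 FPKM in Foxo3 KO and 89.4 FPKM in WT.

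In the small subunit the most abundant member was Mrps21, a counterpart of a bacterial small subunit protein, at 164 FPKM in the Foxo3 KO library and 146 FPKM in the WT library (chromosome 3, 95862634 to 95871519, log2 ratio 0.16). Mrps16, in which human mutations cause a mitochondrial translation defect, read 99.6 FPKM in Foxo3 KO and 85.9 FPKM in WT (0.21).

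The 4 members that met the size rule were Mrps6, Mrpl41, Mrps35 and Mrpl55. Mrps6, the counterpart of a bacterial protein that pairs with the S18 family in the small subunit, read 102 FPKM in the Foxo3 KO library and 64.1 FPKM in the WT library, 59.2% above WT, with a log2 ratio of 0.66. It was the single member 1.5-fold or more higher, against 0.41% of measured genes, and 0 members were lower by as much, against 0.94%. Its gene (chromosome 16, 92058270 to 92112227) overlaps exons of Slc5a3, the sodium-coupled myo-inositol transporter gene, which was listed at 16.9 FPKM in the Foxo3 KO library and 13.1 FPKM in the WT library (log2 ratio 0.34). How reads of this shared stretch were assigned is not given, and its part in the Mrps6 value was not tested. Without Mrps6 the small subunit median was still 0.17.

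Mrpl41 read 19.7 FPKM in Foxo3 KO and 15.3 FPKM in WT (0.35, 28.9% above WT). Mrps35 read 79.9 FPKM in Foxo3 KO and 62.8 FPKM in WT (0.34, 27.3% above WT). Mrpl55, the counterpart of a bacterial protein at the bridge between the subunits, read 34.2 FPKM in Foxo3 KO and 27.1 FPKM in WT (0.33, 26.4% above WT). These 3 values lie just past the limit of the size rule: centring on the median gene left Mrps6 as the 1 member that met it, and a pseudocount of 5 FPKM left 2, Mrps6 and Mrps35. Just short of the limit came Mrps36, at 79.8 FPKM in Foxo3 KO and 64.1 FPKM in WT (0.31). Mrps24, counterpart of a bacterial protein at the entry of the mRNA channel, read 28.4 FPKM in Foxo3 KO and 22.9 FPKM in WT (0.30). Mrps34, mutated in a human mitochondrial disease, read 51.2 FPKM in Foxo3 KO and 41.5 FPKM in WT (0.30), and its exons overlap those of Nme3 and Mapk8ip3. Mrpl9, Mrpl38 and Mrps22 followed at 0.26, 0.23 and 0.26.

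At the other end, Mrps18c had the lowest log2 ratio of the members, at 77.7 FPKM in the Foxo3 KO library and 88.3 FPKM in the WT library, a ratio of -0.18 (chromosome 5, 100798627 to 100804471). It belongs to a family of 3 mitochondrial relatives of the same bacterial small subunit protein, of which the list of bacterial counterparts used below holds Mrps18c alone. Its relatives went the other way: Mrps18a read 78.0 FPKM in Foxo3 KO and 71.1 FPKM in WT (0.13), and Mrps18b read 69.6 FPKM in Foxo3 KO and 60.6 FPKM in WT (0.20). No gene of this family met the size rule. The counting step is not described, and whether any reads were shared among these genes was not tested. The other 5 members below 0 were Mrpl21 (-0.04), Mrpl13 (-0.03), Mrpl40 (-0.01), Mrpl30 (-0.01) and Mrps33 (-0.01), whose levels in both libraries were nearly equal. Mrpl49, Mrps26, Mrps27, Mrps28 and Mrps31 lay between 0.01 and 0.03. After centring on the median gene, 5 members changed sign from above to below 0 (Mrpl23, Mrpl24, Mrpl27, Mrpl49 and Mrps26), which left 65 of 76 above 0 where 50.0% of measured genes were.

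Members were also split by whether the protein has a counterpart in bacteria, with Mrps18a and Mrps18b placed among those without one. Of 46 members with a bacterial counterpart 42 were above 0, with a median log2 ratio of 0.15. Of 30 members without one 28 were above 0, with a median of 0.14. In the large subunit the medians were 0.15 for 30 conserved and 0.14 for 17 specific members, and in the small subunit 0.18 for 16 conserved and 0.14 for 13 specific members. A further 7 proteins of the ribosome carry other names, and all 7 had a log2 ratio above 0, of which Ict1 was below 0 under trimmed-mean scaling and centring on the median gene. In the small subunit these were Dap3, a GTP-binding protein (14.0 FPKM in Foxo3 KO and 12.8 FPKM in WT), Chchd1 (53.3 FPKM in Foxo3 KO and 49.1 FPKM in WT), Aurkaip1 (54.2 FPKM in Foxo3 KO and 50.0 FPKM in WT) and Ptcd3. In the large subunit Mrp63 had a log2 ratio of 0.3215, just short of the size rule, Gadd45gip1 one of 0.19, and Ict1, a hydrolase that frees stalled chains, one of 0.01.

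The genes that build and serve the mitochondrial ribosome were also higher in most cases, from lists written with earlier results of these data known. Of all measured genes 57.6% were above 0, which is the share to set beside the counts below. Of 25 measured genes for assembly and rRNA modification 19 were above 0, with a median log2 ratio of 0.17, and 0 met the size rule in either direction. The rRNA methyltransferase gene Mrm3, listed as Rnmtl1, read 7.72 FPKM in Foxo3 KO and 5.97 FPKM in WT (0.3216), just short of the rule. Gtpbp10, a GTPase of large subunit assembly, read 9.89 FPKM in Foxo3 KO and 7.78 FPKM in WT (0.31), and Malsu1, which keeps immature large subunits from joining, had a log2 ratio of 0.28. The assembly gene Mpv17l2 read 40.4 FPKM in Foxo3 KO and 34.9 FPKM in WT (0.21), while the small subunit maturation gene Rbfa read 33.1 FPKM in Foxo3 KO and 34.4 FPKM in WT (-0.05).

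Of 15 translation and membrane insertion genes 14 were above 0 (median 0.12). Tufm, the elongation factor that delivers tRNAs, read 102 FPKM in Foxo3 KO and 84.6 FPKM in WT (0.27). Its exchange factor Tsfm read 32.8 FPKM in Foxo3 KO and 26.0 FPKM in WT and was the 1 gene of the list that met the size rule (0.33). The insertase gene Oxa1l had a log2 ratio of 0.21 and the mRNA-binding gene Slirp one of 0.05. All 20 of the mitochondrial aminoacyl-tRNA synthetase and amidotransferase genes were above 0, with a median of 0.13, from Cars2, the 1 gene that met the size rule, at 11.8 FPKM in Foxo3 KO and 9.14 FPKM in WT (0.33) down to 0.06. Tsfm (0.30) and Cars2 (0.31) no longer met the rule after centring on the median gene. Wars2 and Hars2 had log2 ratios of 0.24 and 0.22, and the abundant Iars2 and Tars2 had 0.12 and 0.15.

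Genes for mitochondrial DNA transcription and maintenance were above 0 in 8 of 9 cases, with a lower median of 0.08. The RNA polymerase gene Polrmt read 14.3 FPKM in Foxo3 KO and 12.6 FPKM in WT (0.18), and its elongation factor Tefm had a log2 ratio of 0.21. Polg2, a subunit gene of the mitochondrial DNA polymerase, was low, at 2.15 FPKM in Foxo3 KO and 1.74 FPKM in WT (0.20). The single-strand binding protein gene Ssbp1 stood at 0.07 and Tfb2m at -0.0027. The nuclear regulators of mitochondrial genes split, with 6 of 11 measured genes above 0 (54.5%, near the 57.6% of all measured genes). Their median was 0.01 and, Foxo3 being among them, their mean was -0.24. Under trimmed-mean scaling the count was 5 and the median -0.01. Esrra, the oestrogen-related receptor gene, had a log2 ratio of 0.22, Gabpa, an ETS factor, read 20.1 FPKM in Foxo3 KO and 17.9 FPKM in WT (0.16), and Yy1 had a log2 ratio of 0.03. Below 0 besides Foxo3 were Myc (-0.13), Gabpb1, which encodes the partner subunit of Gabpa (-0.08), Nrf1 (-0.07) and Pprc1 (-0.02), and none of these 4 met the size rule.

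Medians of 2 related gene groups lay on either side of that of the mitochondrial ribosome. All 78 measured genes of the respiratory chain and ATP synthase were above 0, with a median log2 ratio of 0.17, and 6 (7.69%) met the size rule on the higher side, against 2.96% of all measured genes. Of 83 measured genes listed as cytosolic ribosomal proteins 79 were above 0, with a median of 0.07, and 0 met the size rule on the higher side. That list was taken by symbol alone, so it can hold genes that are not ribosomal proteins and miss some that are. On the lower side 2 met the size rule, Rpl39l, at 0.487 FPKM in Foxo3 KO and 1.43 FPKM in WT (-0.71), and Rps27, at 2.06 FPKM in Foxo3 KO and 2.84 FPKM in WT (-0.33). Both were listed far below the list median of 928 FPKM in Foxo3 KO and 869 FPKM in WT. Whether the quantification missed reads of Rps27 was not tested. The median of the mitochondrial ribosomal genes, 0.15, thus lay nearer to that of the respiratory chain genes, and with 1 library in each group the differences between groups could not be tested. Macrophage markers went the other way in the same libraries. Of 14 measured 12 were below 0, with a median of -0.16. Their summed level was 8412 FPKM in the Foxo3 KO library and 10351 FPKM in the WT library. Lyz2 alone gave 5674 FPKM of the KO sum and 7501 FPKM of the WT sum. Mrc1, the mannose receptor, read 58.0 FPKM in Foxo3 KO and 90.2 FPKM in WT, Mertk, a receptor for dying cells, had a log2 ratio of -0.61, and Cd68 one of -0.03. Timd4 was listed at 0 in both.

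Osteoclast markers were above 0 in 7 of 10 cases (70%, against 57.6% of all measured genes), with a median of 0.12. Their summed levels were 23066 FPKM in the Foxo3 KO library and 20525 FPKM in the WT library. Most of both sums came from Acp5, Ctsk and Mmp9. Acp5, Mmp9 and Nfatc1 had log2 ratios of 0.16, 0.22 and 0.19, and Itgb3 one of -0.28. The part of either marker list in the level of the ribosomal genes was not tested. Neutrophil markers summed to 161 FPKM in the Foxo3 KO library and 165 FPKM in the WT library, with 3 of 8 above 0, S100a8 at 67.0 FPKM in Foxo3 KO and 70.2 FPKM in WT, S100a9 at 0.05, Ngp at -0.15, Camp at 0.29 and Retnlg listed at 0 in the KO library. Measured stromal markers summed to 6.82 FPKM in the Foxo3 KO library and 7.29 FPKM in the WT library, with Col1a1, Col1a2 and Col3a1 at -0.04, -0.18 and 0.08 and Lum listed at 0. Of the T, NK and B cell markers 1 was measured, Cd4 (6.27 FPKM in Foxo3 KO and 6.77 FPKM in WT), and Cd3e and Nkg7 were listed at 0 in both libraries. Of the erythroid and megakaryocyte markers 1 was measured, Pf4 (26.2 FPKM in Foxo3 KO and 55.7 FPKM in WT).

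**Figure D3:**
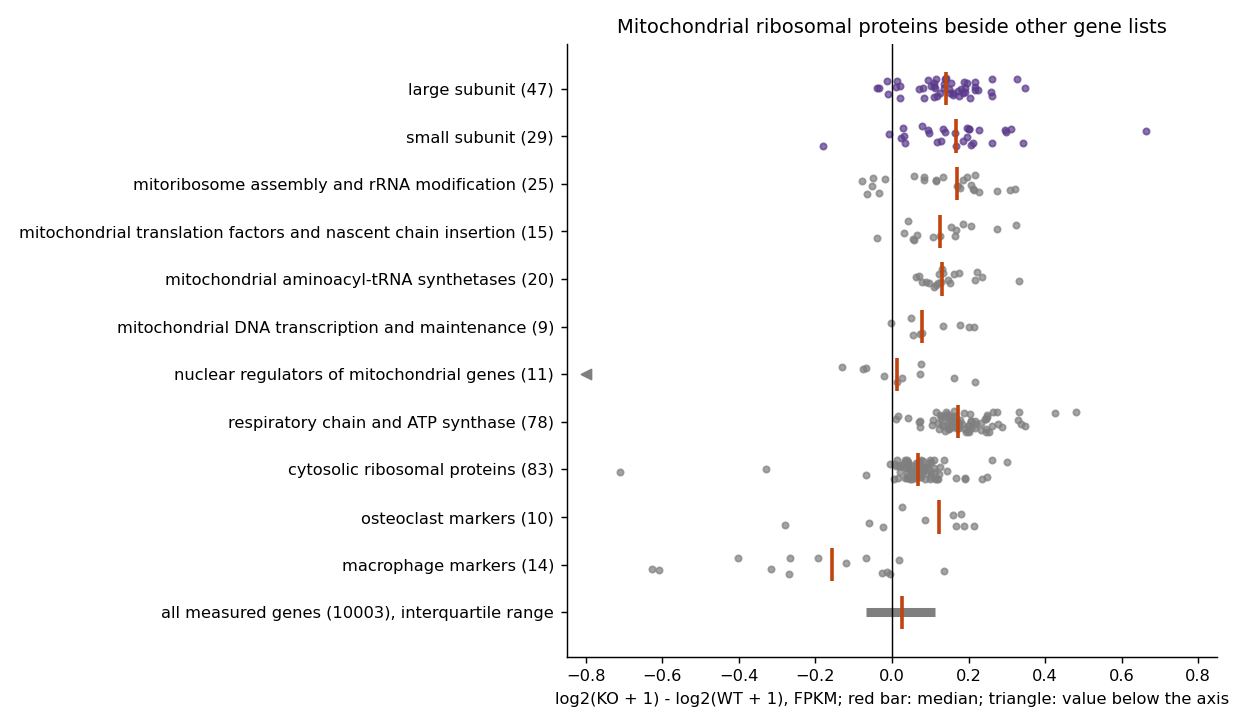
Log2 ratio of each measured gene (points, x axis, with a pseudocount of 1 FPKM) by gene list, with list sizes in parentheses and medians as red bars; the triangle is Foxo3, at -2.87, and the lowest row gives the interquartile range of all 10003 measured genes. The medians of both ribosomal subunits, 0.14 and 0.17, lie between those of the cytosolic ribosomal proteins (0.07) and the respiratory chain and ATP synthase (0.17).

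Over all measured genes the log2 ratio varied somewhat with transcript length, level and GC content, and the members are shorter and more abundant than most genes. The longest annotated transcript of a member had a median of 1284 bases, against 3083 bases for all measured genes, and 53 of the 76 members fell in the shortest of 4 bins of equal gene number. In that bin the median log2 ratio was 0.17 for the members and 0.06 for all 2490 measured genes. There 47 of the 53 members were above 0, against 67.8% of all genes in the bin. In the longest bin the median was 0.13 for 4 members and -0.01 for 2494 genes. By level, 47 members lay in the highest bin, with a median of 0.16, against 0.04 for the 2501 genes there. Of those 47 members 43 were above 0, against 64.7% of the genes there. The median GC content was 50.5% for the members and 50.0% for all measured genes. By GC content, the medians ran from 0.11 to 0.19 for the members over the bins and from 0.01 to 0.06 for all genes. In each bin that held members, their median was thus above that of all genes. Across the members, the Spearman rho with the log2 ratio was 0.17 for level, -0.16 for transcript length and 0.23 for GC content, over genes that share both libraries.

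**Figure D4:**
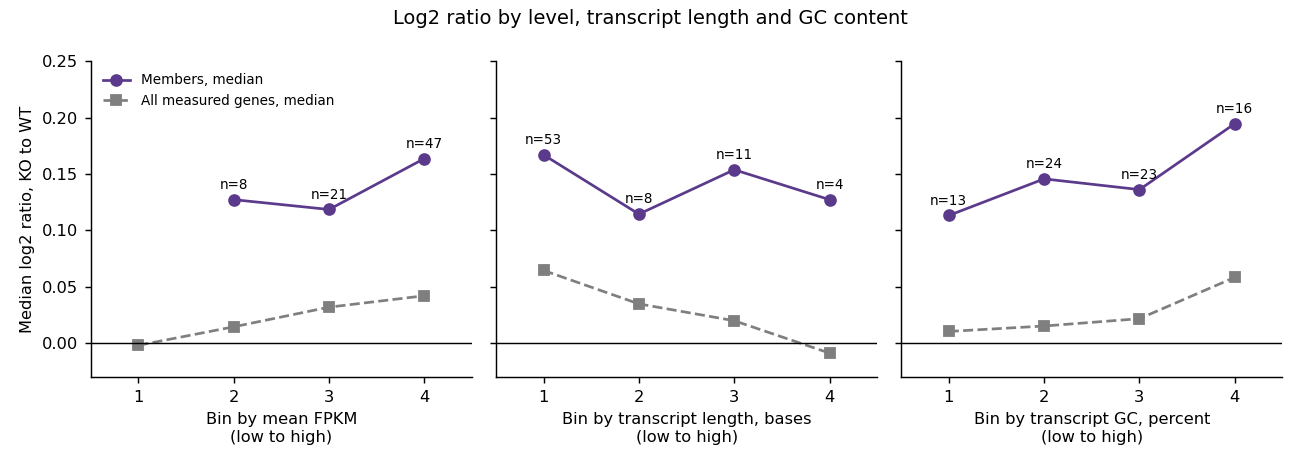
Median log2 ratio (y axis) of members (circles, with their number) and of all measured genes (squares) in 4 bins of all measured genes by mean level, transcript length and GC content, low to high. The members' medians lie between 0.11 and 0.19, above those of all genes, which lie between -0.01 and 0.06; the lowest bin by level held 0 members.

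The genes are scattered over 17 chromosomes, with the most members on chromosome 11 (10) and chromosome 17 (8). All members on these were above 0, near the 92.1% of all 76 members, and the same held for several other chromosomes. Many start head to head with another gene. A protein-coding gene on the other strand began within 1000 bases upstream, or overlapped the start by up to 300 bases, for 22 members (28.9%), against 14.3% of 9948 measured protein-coding genes. Of these partners 21 were measured, and 14 of them (66.7%) had a log2 ratio above 0, near the 57.6% of all measured genes, with a median of 0.10. Over the same pairs 17 of 21 members were above 0, with a median of 0.12. Some partners serve mitochondria too. Mrps12 starts 172 bases from Sars2, the mitochondrial seryl-tRNA synthetase gene, and the pair had log2 ratios of 0.09 and 0.10. Mrpl36 and the complex I gene Ndufs6, whose starts overlap by 29 bases, had 0.17 and 0.25. Other pairs differed in sign: Mrps18c, at -0.18, starts 29 bases from the helicase gene Helq, which read 1.26 FPKM in Foxo3 KO and 1.09 FPKM in WT (0.11).

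Exons of 32 members overlap those of another annotated gene, and for 23 the other gene is protein-coding. Mrps11 and Mrpl46 overlap each other, at 15.2 FPKM in Foxo3 KO and 13.1 FPKM in WT for Mrps11 and 26.8 FPKM in Foxo3 KO and 24.7 FPKM in WT for Mrpl46. Since it is not given whether counting used strand, reads of overlapping stretches may not be separable. Without the 32 members, 41 of the remaining 44 were above 0, with medians of 0.16 for the large and 0.17 for the small subunit.

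Promoters of the members were also read. RefSeq promoter windows (GRCm38.p6, 250 bases before to 50 after the start) were found for 67 members. Not matched were Mrpl4, Mrpl13, Mrpl15, Mrpl19, Mrpl38, Mrpl54, Mrps28, Mrps34 and Mrps35. The windows below belong to the most abundant members of each subunit and to the members of highest and lowest log2 ratio. Capitals mark matches, on either strand, to the NRF1 motif (GCGCA, then any base N, then GCGC), the ETS and GABP motif ACTTCCG, the YY1 motif AAGATGGCG or the forkhead motif GTAAACA, none of which is contained in another.
Mrpl52, chr14:54426659-54426958, plus strand: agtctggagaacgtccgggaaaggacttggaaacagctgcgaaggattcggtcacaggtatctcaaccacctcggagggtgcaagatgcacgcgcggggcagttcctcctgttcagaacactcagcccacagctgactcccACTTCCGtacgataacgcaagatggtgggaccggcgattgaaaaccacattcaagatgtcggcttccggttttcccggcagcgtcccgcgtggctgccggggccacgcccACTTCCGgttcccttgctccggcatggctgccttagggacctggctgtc
Mrpl12, chr11:120484387-120484686, plus strand: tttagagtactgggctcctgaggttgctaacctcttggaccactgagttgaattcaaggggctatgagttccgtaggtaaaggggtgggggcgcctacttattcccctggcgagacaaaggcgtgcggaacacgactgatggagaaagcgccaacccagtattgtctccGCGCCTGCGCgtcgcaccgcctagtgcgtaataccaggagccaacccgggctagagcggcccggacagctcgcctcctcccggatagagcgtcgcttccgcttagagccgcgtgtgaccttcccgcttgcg
Mrps21, chr3:95871465-95871764, minus strand: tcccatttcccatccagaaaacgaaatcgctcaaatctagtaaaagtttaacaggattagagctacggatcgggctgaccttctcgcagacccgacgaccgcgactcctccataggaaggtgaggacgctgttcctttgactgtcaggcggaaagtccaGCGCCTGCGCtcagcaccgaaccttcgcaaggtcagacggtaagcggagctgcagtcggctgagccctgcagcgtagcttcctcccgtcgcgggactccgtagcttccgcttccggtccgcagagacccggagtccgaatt
Mrps16, chr14:20393585-20393884, minus strand: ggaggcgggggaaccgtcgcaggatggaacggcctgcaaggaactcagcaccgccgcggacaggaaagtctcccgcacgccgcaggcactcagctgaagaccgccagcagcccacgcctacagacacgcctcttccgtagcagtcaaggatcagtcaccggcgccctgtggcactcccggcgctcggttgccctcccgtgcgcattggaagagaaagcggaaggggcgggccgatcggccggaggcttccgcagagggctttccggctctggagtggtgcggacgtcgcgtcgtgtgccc
Mrps6, chr16:92058086-92058385, plus strand: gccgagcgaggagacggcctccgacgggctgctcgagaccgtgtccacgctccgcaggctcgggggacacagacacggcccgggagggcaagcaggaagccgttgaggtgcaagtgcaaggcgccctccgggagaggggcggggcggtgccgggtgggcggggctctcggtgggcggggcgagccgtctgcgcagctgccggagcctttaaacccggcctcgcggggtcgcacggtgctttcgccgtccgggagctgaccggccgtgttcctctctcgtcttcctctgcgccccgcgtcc
Mrps18c, chr5:100798509-100798808, plus strand: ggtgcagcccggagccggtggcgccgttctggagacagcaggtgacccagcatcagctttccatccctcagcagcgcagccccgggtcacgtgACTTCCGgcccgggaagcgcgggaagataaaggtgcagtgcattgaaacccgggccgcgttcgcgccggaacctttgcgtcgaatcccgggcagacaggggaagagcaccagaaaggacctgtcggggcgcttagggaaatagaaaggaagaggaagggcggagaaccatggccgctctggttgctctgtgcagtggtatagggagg

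Mrpl12 and Mrps21 each hold an NRF1 match, 81 and 91 bases before the start for its first base. Mrpl52 holds a pair of ETS matches, the first 109 bases before the start, and Mrps18c holds a single ETS match. No letters of these motifs were found in the windows of Mrps16 and Mrps6. Over the 67 matched members, the NRF1 motif was in 12 (17.9%), against 12.8% of 8158 measured genes and 5.2% of all 27025 genes with a window. The ETS motif was in 17 members (25.4%), against 16.8% of measured and 7.2% of all genes. The YY1 motif was in 8 members (11.9%), against 4.1% of measured and 1.6% of all genes. The forkhead motif, the kind that FoxO factors bind, was in 2 members (3.0%), against 3.1% of measured and 4.1% of all genes. A gene was counted where any of its windows matched, and a match is a description of letters, not of binding. The 2 members with the forkhead motif had a median log2 ratio of 0.03, with 1 of them above 0. The 65 matched members without it had a median of 0.15, with 61 above 0. Medians with and without the motif were 0.12 and 0.15 for NRF1, 0.14 and 0.16 for ETS, and 0.18 and 0.14 for YY1, and these differences were not tested.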

How the data were processed

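The authors deposited 1 table of values per library, read here as FPKM because the values are not whole, sum to 540601 in the Foxo3 KO and 530701 in the WT library, and scale inversely with transcript length where they are lowest. Per the submitters' processing notes TopHat, edgeR and mm10 were used, without stated roles. The sources used here do not give the quantifier, annotation or scaling. An apparent constant of 0.000001 was subtracted. Read totals are not given. Ratios of 1657 genes below 0.15 FPKM, scored within 0.015 (log2) of ratios of small whole numbers, put the KO library at 1.40 times the depth of the WT library, so low genes are measured less finely in WT.

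The members and lists were chosen with earlier results of these data known. Named genes are Foxo3 and, of the members, the 8 most abundant and the 6 highest and 6 lowest in log2 ratio of each subunit. From other lists they are the 3 farthest from 0 and the 2 most abundant. Other genes named (Mrpl24, Mrpl27, Mrpl46, Mrps11, Mrps12, Mrpl36, Ptcd3, Myc, Gabpb1, Nrf1, Pprc1, Rpl39l, Rps27 and partner genes) were chosen after their values were seen. Older symbols were matched through RefSeq synonyms, which failed for 4 list genes (Trmt61b, Ly6g, Hba-a1 and Hbb-bs). Coordinates, overlaps, lengths and GC content come from GENCODE M21 on mm10, where all 76 members matched. Python 3.11.15, numpy 2.4.6, pandas 2.3.3 and matplotlib 3.10.9 were used.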

Additional observations from a re-analysis of the deposited data

How the results depend on the processing

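The count of members above 0 was 67 under trimmed-mean scaling, which divides KO values by 1.01, 65 after centring on the median gene and 41 of 44 with overlapping members left out, where the fall follows from the number of members. The size rule gave 4 higher members. Centring left 1, a pseudocount of 5 left 2, a 1.5-fold rule left 1 and a 2-fold rule left 0, as smaller ratios and stricter limits imply. The count of lower members was 0 under every alternative run. Over all alternatives the large subunit median ran from 0.12 to 0.16, the small subunit median from 0.14 to 0.18, and their difference from -0.04 to -0.02. Of 388 recomputed ratios of 97 named genes, 12 moved by over 0.0936, all with another pseudocount and none that of a member. The genes were Foxo3, Rnmtl1, Polg2, Mertk, Retnlg, Camp, Pf4, Rpl39l and Rps27, and 0 of these 12 ratios changed sign. Among ratios that moved less, 3 members changed sign under trimmed-mean scaling and 5 after centring, all of them near 0. Rpl39l and Rps27 no longer met the size rule at a pseudocount of 5 (-0.23 and -0.15). Leaving out Mrps6 was chosen after seeing the data. No paired analysis was possible because there is a single library per genotype, so none can be left out. There are no replicates, so the spread between animals or cultures is not known.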
